A study of Mus musculus with 6 samples.

Results

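Amino acid transporter genes were examined in mouse pulmonary microvascular endothelial cells by RNA sequencing. The set was defined by gene symbol: protein-coding genes of the SLC1, SLC3, SLC6, SLC7, SLC36, SLC38 and SLC43 carrier families, which gave 62 of the 55232 features in the deposited table. These cells are given as a cell line in the labels and were not treated themselves. They had shared a culture for 12 h with TCMK-1, an established line of mouse renal tubule epithelium, and were taken from the lower chamber. In the control group (3 samples) the TCMK-1 cells were untreated. In the group called repletion here (3 samples) the TCMK-1 cells had first been depleted of ATP and had then recovered it, a condition that the labels abbreviate as IR. The sample titles mark this group with OD. The comparison asks how the endothelial cells differ after exposure to kidney cells that lost and regained ATP. The labels do not state whether samples of a group were separate cultures, and the p-values therefore reflect the spread between these samples only, which may be technical.

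The set is wider than its family names. Slc6a2, Slc6a3 and Slc6a4 encode monoamine carriers, Slc6a8 a creatine carrier, Slc6a12 a betaine and GABA carrier and Slc43a3 a purine nucleobase carrier. Slc7a6os, which the symbol rule also took, is named for lying opposite Slc7a6 and does not encode a carrier.

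The libraries held 15582349 to 17817618 counts, of which the set took 0.312% to 0.323% in control and 0.360% to 0.385% in repletion. Mitochondrial mRNA made up 1.61% to 1.68% of the counts in control and 2.21% to 2.78% in repletion, and features without an Ensembl gene identifier 0.133% to 0.143% and 0.179% to 0.208%. No pair of replicates looked like a repeat of 1 library, since every pair had a chi-square between 9.07 and 26.6 per feature. Endothelial markers were present in all libraries: 11 of 12 were tested, and their summed level was 2391 to 2667 CPM (counts relative to the library total) in control and 2535 to 2983 in repletion. Among the 11, 4 rose and 2 fell in the comparison below. Cldn5, which was not tested, had 3 counts in repletion replicate 2 and none elsewhere. Of 15 kidney tubular markers 4 were tested, and the list summed to 16.3 to 19.9 CPM in control and 29.3 to 34.0 in repletion, with Epcam, Krt18, Slc34a1 and Umod at 0 in all libraries. Of 10 leukocyte markers 2 were tested, and the list summed to 378 to 417 CPM in control and 223 to 311 in repletion, with Cd3e and Itgam at 0. Fibroblast and mural markers (3 of 10 tested) summed to 20.4 to 23.0 CPM in control and 18.4 to 25.6 in repletion, lymphatic markers (3 of 5 tested) to 77.1 to 101 and 116 to 133, and lung epithelial markers, none of which was tested, to at most 0.740 CPM in any library. Among the 3 tested lymphatic markers, 2 rose and 1 fell in the comparison below, with log2 fold changes from -1.54 to 0.51. The part of these differences between libraries in the results on carriers was not tested. In such bulk samples, fewer cells of a type and less RNA per cell cannot be told apart.

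Cells take up and exchange amino acids through carriers of several families. SLC38 and SLC1 carriers bring in small neutral amino acids such as glutamine, alanine and serine with sodium. The heteromeric exchangers join a heavy chain, SLC3A2 (4F2hc, CD98) or SLC3A1, to an SLC7 light chain that carries out the transport, and they trade intracellular glutamine or glutamate for leucine or cystine. Cationic carriers of the SLC7 family supply arginine, the substrate of endothelial nitric oxide synthase, and carriers in the lysosomal membrane release amino acids from degraded protein and report them to the kinase complex mTORC1. Many of these genes are induced through the transcription factor ATF4 when amino acids run short.

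The carriers did not move as a block. After a filter on low counts, 29 of the 62 genes were tested, and 8 were higher and 9 lower in repletion at an adjusted p under 0.05 (edgeR's quasi-likelihood test, Benjamini-Hochberg adjustment over all tested features), while 12 did not pass. These are 27.6% and 31.0% of the tested genes of the set, or 58.6% in either direction. Of all 13804 tested features, 20.5% were called higher, 19.2% lower and 39.7% in either direction. The median log2 fold change was 0.06 over the 29 genes and 0.00 over all tested features. CPM are scaled with TMM factors from here on unless stated otherwise, and ± after a log2 fold change is its standard error. The CPM ranges of the groups did not overlap for 20 of the 29 genes, or 69.0%, beside 50.3% of all tested features. The higher genes were Slc38a2, Slc38a1, Slc38a4, Slc6a6, Slc6a19, Slc7a11, Slc36a4 and Slc7a3. The lower genes were Slc3a2, Slc7a6, Slc1a4, Slc38a7, Slc43a2, Slc43a3, Slc6a8, Slc6a9 and Slc6a12.

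**Figure D1:**
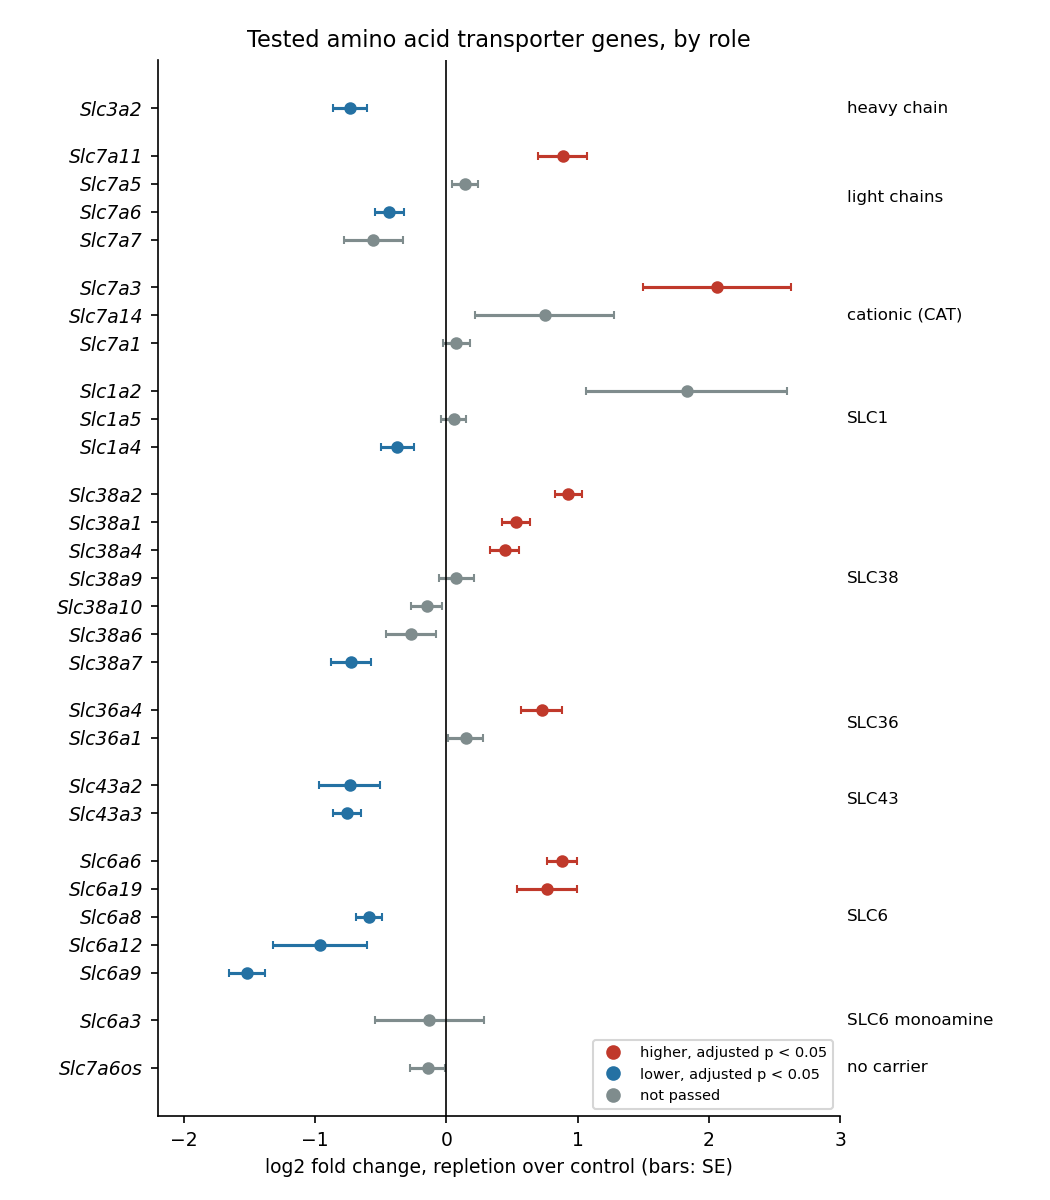
The log2 fold change of repletion over control (x axis) is shown for the 29 tested genes in rows grouped by role, with bars for the standard error, red for genes called higher, blue for genes called lower and grey for those that did not pass. Values run from -1.52 for Slc6a9 to 2.06 for Slc7a3, and the SLC1, light chain, SLC38 and SLC6 rows hold genes on both sides of 0.

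Among the SLC38 carriers, 3 of 7 tested genes rose, 1 fell and 3 did not pass. Slc38a2 (ENSMUSG00000022462, chromosome 15, 96687392 to 96699730 in GRCm38, minus strand) encodes SNAT2, a sodium-coupled carrier of small neutral amino acids whose synthesis is known to respond to amino acid shortage. It stood at 672, 678 and 679 CPM in the control libraries and at 1151, 1421 and 1290 in the repletion libraries. Every repletion library was well above the control libraries, which lay close together. Slc38a2 rose by 0.93 ± 0.10 on the log2 scale, or 1.90-fold, at an edgeR adjusted p of 3.0e-06.

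Slc38a1, the gene of the glutamine carrier SNAT1, stood at 150, 170 and 152 CPM in control and at 247, 211 and 225 in repletion. The groups did not overlap, and Slc38a1 rose by 0.53 ± 0.10 (edgeR adjusted p of 6.9e-04). This call was lost, with a log2 fold change of 0.05 and an adjusted p of 0.668, when the dependence of each library on gene length and GC content was taken out, and Slc38a1 has the longest gene model of the set at 17236 bases, with 1450 bases shared with 4632432E15Rik. This was the highest adjusted p of Slc38a1 in any alternative.

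Slc38a4, which encodes SNAT4, a carrier best known from liver and placenta, went from 78.5, 81.4 and 79.5 CPM to 94.7, 112 and 119. Its groups did not overlap either, and it rose by 0.44 ± 0.11 (edgeR adjusted p of 0.00418). Slc38a1, Slc38a2 and Slc38a4 lie side by side on chromosome 15 within 484.5 kilobases (96571418 to 97055956 in GRCm38), with no other protein-coding gene of the table between them. They were the one group of 3 neighbouring carriers, at most 1000 kilobases apart, in which all 3 were tested, and all 3 were called higher. The group of Slc36a1, Slc36a2 and Slc36a3 had 1 tested gene and that of Slc6a3, Slc6a18 and Slc6a19 had 2. Neither of these could have had 3 calls. Slc38a6 and Slc38a10, whose substrates are less well defined, had log2 fold changes of -0.27 ± 0.19 and -0.15 ± 0.12 with edgeR adjusted p of 0.277 and 0.332. Slc38a6 shares stretches of sequence with many other genes, and its counts are uncertain.

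**Figure D2:**
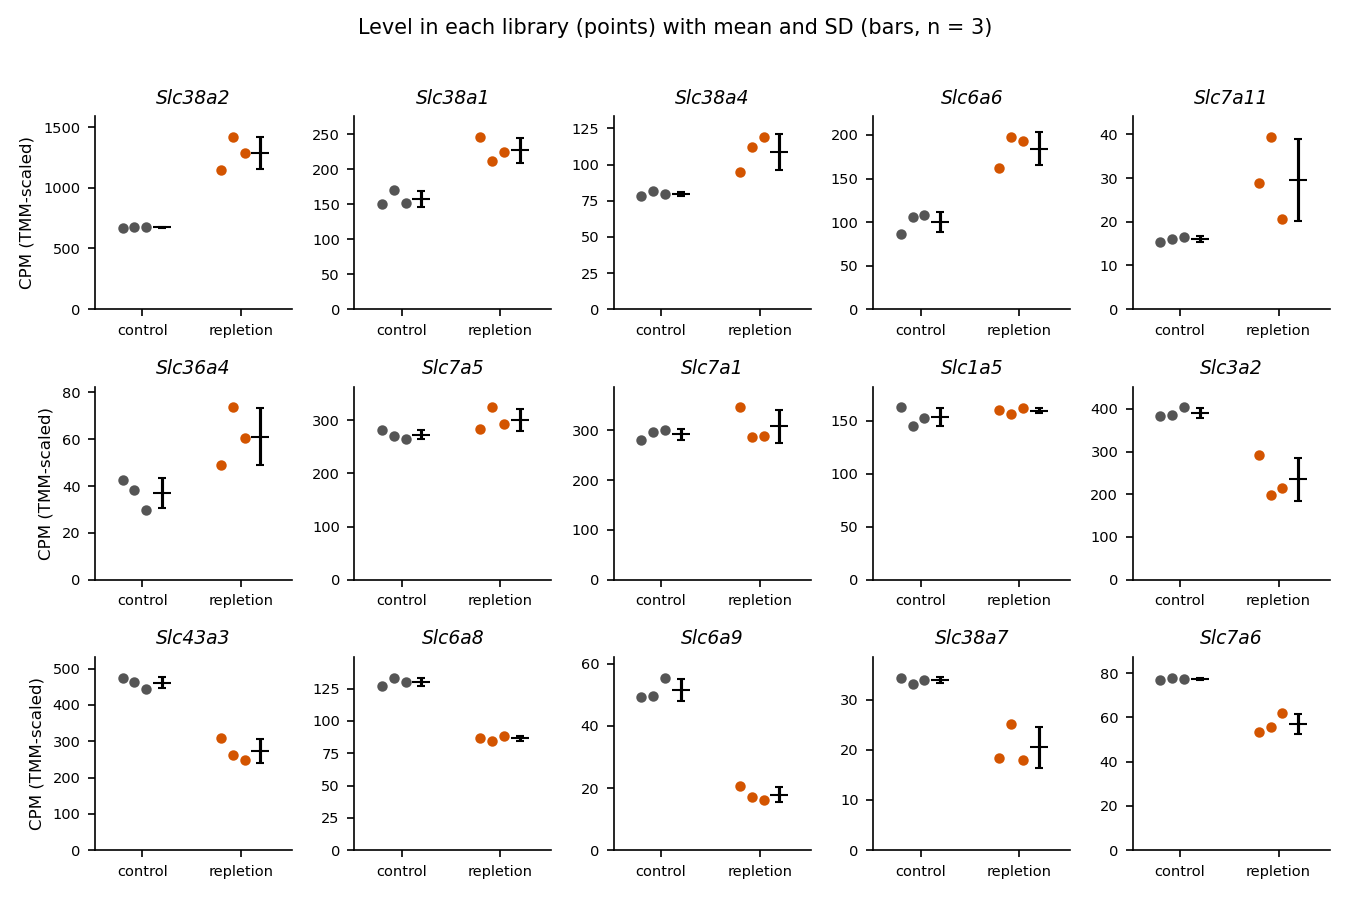
Each panel shows the TMM-scaled CPM (y axis, from 0) of 1 carrier gene in the 3 control and the 3 repletion libraries as points, with the mean and SD as a bar. The control points of Slc38a2 lie at 672 to 679 CPM and its repletion points at 1151 to 1421, while Slc7a1 and Slc1a5 overlap between groups and Slc6a9 falls from at least 49.2 CPM to at most 20.6.

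Among the heteromeric exchangers, the heavy chain Slc3a2 and the light chain Slc7a6 fell, and the light chain Slc7a11 rose. Slc3a2 (ENSMUSG00000010095, chromosome 19, 8706882 to 8723369, minus strand), the heavy chain that brings light chains to the plasma membrane, stood at 382, 386 and 404 CPM in control and at 293, 198 and 214 in repletion. The first repletion library lay highest of its group, and the groups did not overlap. Slc3a2 fell by 0.73 ± 0.13 on the log2 scale (edgeR adjusted p of 2.4e-04), and by 0.93 without that library. The other heavy chain gene, Slc3a1, had 2, 0 and 0 counts in control and 7, 5 and 6 in repletion and was not tested.

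Of 9 light chain genes, 4 were tested, and 1 rose, 1 fell and 2 did not pass. Slc7a5, the gene of the leucine exchanger LAT1, stood at 282, 271 and 265 CPM in control and at 285, 325 and 293 in repletion. These ranges did not overlap, but the difference of 0.14 ± 0.10 did not pass (edgeR adjusted p of 0.266). Slc7a6, which encodes y+LAT2, an exchanger of cationic for neutral amino acids, fell by 0.43 ± 0.11 (edgeR adjusted p of 0.0045), from 76.7, 77.9 and 77.3 CPM to 53.5, 55.9 and 62.1. Slc7a7, the gene of the related y+LAT1, stood at 8.20, 9.13 and 7.49 CPM in control and at 5.01, 5.40 and 6.46 in repletion, without overlap, and its log2 fold change of -0.55 ± 0.22 did not pass (edgeR adjusted p of 0.0560). Slc7a7 overlaps exons of Oxa1l on the opposite strand. Slc7a8, Slc7a9 and Slc7a13 had at most 5 counts in any library, and Slc7a10 and Slc7a12 had none.

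Slc7a11 (ENSMUSG00000027737, chromosome 3, 49892526 to 50443614, minus strand), the gene of the cystine and glutamate exchanger xCT that feeds glutathione synthesis, rose. It stood at 15.4, 16.2 and 16.6 CPM in control and at 28.8, 39.5 and 20.7 in repletion. All repletion libraries were higher and lay farther apart than the control libraries. The log2 fold change was 0.89 ± 0.19 (edgeR adjusted p of 0.00143). With the trend with length and GC content removed it was 0.50, with an adjusted p of 0.0423, the highest over its alternatives. The gene model of 13922 bases shares 373 bases with the tubulin genes Tuba1a, Tuba1b and Tuba1c. Tuba1c rose by 0.63, from 568 ± 80.5 CPM in control to 878 ± 48.1 in repletion (SD, n = 3). The others did not pass, with means in control and repletion of 491 and 430 CPM for Tuba1a and 2181 and 2063 for Tuba1b. These levels lay far above those of Slc7a11, and the part of tubulin reads in its counts was not tested.

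The promoter of Slc7a11 is shown because it holds a pair of the elements through which ATF4 acts. The core of the C/EBP-ATF response element, TGATGNAA, was searched on both strands in the 250 bases before the RefSeq starts of 44 of the 62 genes (RefSeq, GRCm38.p6). It was found before Slc7a11, Slc7a7 and Slc6a21, or 6.82% of the 44, beside 3.91% of all 27025 genes with such windows. Before Slc7a11 (chr3:50443614-50443863, minus strand), it begins 66 bases before the start on the gene's strand and again, on the opposite strand, 47 bases before it, and both are in capitals:
Slc7a11: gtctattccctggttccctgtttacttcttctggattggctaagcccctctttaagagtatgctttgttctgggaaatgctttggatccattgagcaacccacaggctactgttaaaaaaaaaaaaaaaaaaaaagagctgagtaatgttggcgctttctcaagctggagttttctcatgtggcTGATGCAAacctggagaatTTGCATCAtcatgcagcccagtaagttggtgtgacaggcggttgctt
A match describes letters in the window and not a bound site. The core of the antioxidant response element, TGACNNNGC, was found in the windows of 8 of the 44 genes (18.2%, beside 11.5% of all genes), among them Slc38a2, Slc6a9, Slc7a1 and Slc7a6, which moved in different directions or did not pass.

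Per length, the exchangers' heavy chain was the most abundant carrier mRNA of the set in control. On the scale of the deposited FPKM, which divide counts by gene length, Slc3a2 stood at 107, 108 and 113 in control and at 82.2, 56.2 and 60.4 in repletion. The light chains that pair with Slc3a2 (Slc7a5, Slc7a6, Slc7a7, Slc7a8, Slc7a10 and Slc7a11) summed to 95.3, 92.9 and 90.9 FPKM in control and to 91.3, 105 and 95.6 in repletion. The ratio of the summed light chains to Slc3a2 was 0.851 ± 0.0439 in control and 1.52 ± 0.379 in repletion (SD, n = 3). It was below 1 in every control library and above 1 in every repletion library, at 1.11, 1.86 and 1.58. Slc7a5 held 78.1% ± 0.634 of the summed light chain FPKM in control and 83.2% ± 0.877 in repletion, and Slc7a11 1.23% ± 0.0753 and 2.17% ± 0.586 (SD, n = 3). The share of Slc7a11 rests on its gene model of 13922 bases, beside 3708 for Slc7a5, and on counts that may include tubulin reads. All of these FPKM are levels of mRNA and not of assembled exchangers.

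**Figure D3:**
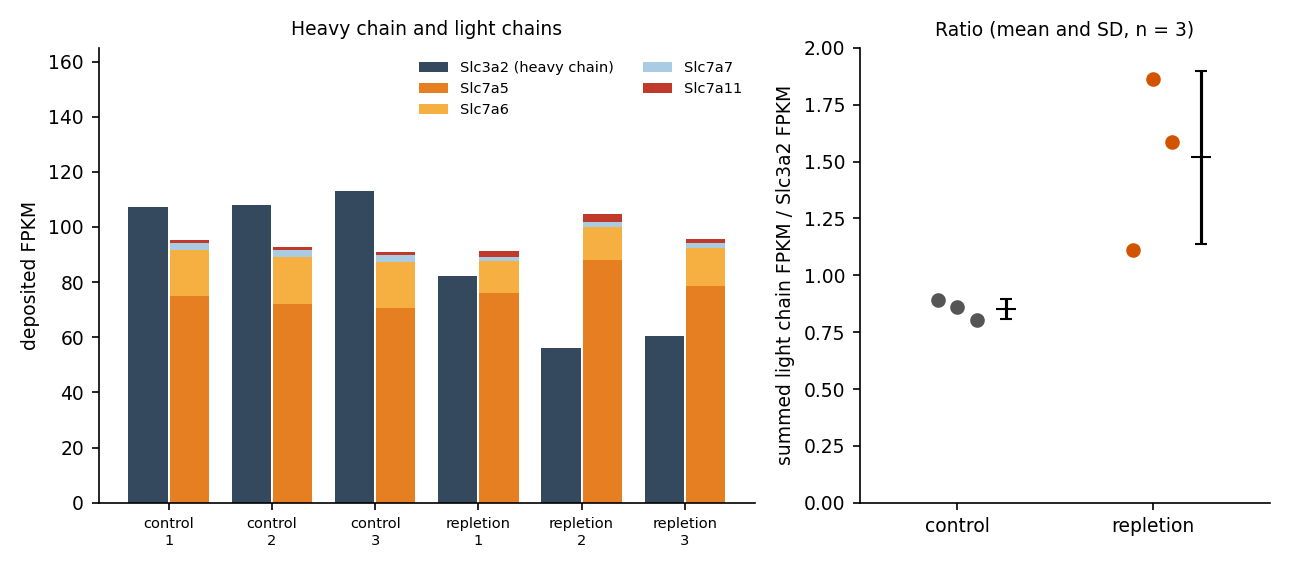
The left panel shows, for each library (x axis), the deposited FPKM of the heavy chain Slc3a2 beside the stacked FPKM of its light chains (y axis, from 0), and the right panel the ratio of the 2 with mean and SD over 3 libraries. The heavy chain bar is the taller of the pair in the 3 control libraries and the shorter in the 3 repletion libraries.

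Of the cationic carriers, 1 of 3 tested genes rose and 2 did not pass. Slc7a1, which encodes CAT1, the main arginine carrier of endothelium, stood at 280, 296 and 301 CPM in control and at 347, 288 and 289 in repletion. The groups overlapped, and the log2 fold change of 0.08 ± 0.10 did not pass (edgeR adjusted p of 0.595). Slc7a3, the gene of CAT3, a carrier best known from brain, rose by 2.06 ± 0.56 (edgeR adjusted p of 0.00765) from 6, 8 and 8 counts to 25, 48 and 21. All of these are low counts, and the call was lost without repletion replicate 2 (1.57 on the log2 scale at an adjusted p of 0.0679, the alternatives lying between 0.00496 and 0.0679). Slc7a14, which encodes a lysosomal relative, had 20, 16 and 14 counts in control and 31, 12 and 44 in repletion and did not pass (0.75 ± 0.53, edgeR adjusted p of 0.279). Slc7a2 and Slc7a4 had no counts.

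The neutral SLC1 carriers were in part lower, and the acidic ones had few or no counts. Slc1a5, the gene of the glutamine exchanger ASCT2, stood at 163, 145 and 153 CPM in control and at 160, 157 and 162 in repletion. These levels overlapped, with a log2 fold change of 0.06 ± 0.10 and an edgeR adjusted p of 0.688. Slc1a4, the gene of ASCT1, a carrier of alanine, serine and cysteine, went from 67.0, 64.2 and 57.9 CPM to 46.6, 57.3 and 42.2. It fell by 0.37 ± 0.13 (edgeR adjusted p of 0.0295), with less than 1 CPM between the lowest control and the highest repletion library. The call of Slc1a4 was lost without control replicate 1 or 2 or repletion replicate 1 or 3 and with library size only, with adjusted p from 0.0534 to 0.155 in these, the alternatives lying between 0.0046 and 0.155. Slc1a2, a glutamate carrier gene of glia, had 0, 9 and 5 counts in control and 22, 11 and 19 in repletion and did not pass (1.83 ± 0.77, edgeR adjusted p of 0.0658). Slc1a3, Slc1a6 and Slc1a7 were not tested, and Slc1a1 had no counts.

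The SLC6 carriers held the largest fall of the set. Of 16 genes of amino acid, osmolyte and creatine carriers, 5 were tested, and 2 rose and 3 fell. Slc6a9 (ENSMUSG00000028542, chromosome 4, 117834506 to 117875198, plus strand), the gene of the glycine carrier GlyT1, stood at 49.2, 49.6 and 55.5 CPM in control and at 20.6, 17.0 and 16.2 in repletion. The groups lay far apart. Slc6a9 fell by 1.52 ± 0.14 on the log2 scale, so that control was 2.87-fold above repletion (edgeR adjusted p of 4.9e-07). It overlaps exons of B4galt2, Ccdc24 and Gm17114 on the opposite strand, and reads of these genes cannot be told apart from its own because the strand setting of the counting is not given in the sources used here.

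Slc6a6, the gene of the taurine carrier TauT, went the other way. It stood at 86.3, 106 and 108 CPM in control and at 163, 198 and 193 in repletion, without overlap. Slc6a6 rose by 0.88 ± 0.12 (edgeR adjusted p of 2.2e-05). It overlaps Gm44981 on the opposite strand. Slc6a8, the creatine carrier gene, stood at 127, 133 and 131 CPM in control and 86.8, 84.5 and 88.2 in repletion. It fell by 0.59 ± 0.10 (edgeR adjusted p of 1.9e-04).

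The other SLC6 calls were lost when single libraries were left out. Slc6a19, the gene of B0AT1, a neutral amino acid carrier of kidney tubule and intestine, had 157, 160 and 135 counts in control and 382, 218 and 193 in repletion. It rose by 0.77 ± 0.23 (edgeR adjusted p of 0.0126), but by 0.44 with an adjusted p of 0.110 without repletion replicate 1, and its call was also lost without control replicate 3 (0.0646), the alternatives lying between 0.00203 and 0.110. Of the kidney tubular markers, whose summed CPM of the library total were 16.3 to 19.9 in control and 29.3 to 34.0 in repletion, 1 of 4 tested genes rose and 3 (Aqp1, Pax2 and Pax8) did not pass. The gene that rose was Cubn, a receptor gene of proximal tubule, by 1.97 ± 0.22 (edgeR adjusted p of 4.2e-06). Its scaled level went from 3.51 ± 0.410 to 13.8 ± 2.24 CPM (SD, n = 3), which is most of the difference in the sum, and the tubular genes Slc34a1 and Umod were at 0. Among the markers not tested, Lrp2 had 1, 1 and 3 counts in control and 6, 3 and 14 in repletion. Krt8 went the other way, with 8, 6 and 8 counts in control and 4, 1 and 2 in repletion. The part of these markers in the result for Slc6a19 was not tested. Slc6a18, the neighbouring gene of another tubular carrier, was not tested and had 5, 11 and 7 counts in control and 3, 5 and 2 in repletion. Slc6a12, the betaine and GABA carrier gene, had 85, 56 and 52 counts in control and 44, 27 and 31 in repletion. It fell by 0.96 ± 0.36 (edgeR adjusted p of 0.0412), and the call was lost in 8 of 16 alternatives, among them DESeq2, limma-voom and the omission of control replicate 1 or 2 or repletion replicate 2 or 3, the alternatives lying between 0.0273 and 0.192. Of the monoamine carriers, Slc6a3 was tested and did not pass (-0.13 ± 0.42, edgeR adjusted p of 0.833).

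Both tested SLC43 genes fell. Slc43a3 (ENSMUSG00000027074, chromosome 2, 84936579 to 84958509, plus strand), the purine nucleobase carrier gene, had the second highest level per length of the set in control, at 102 ± 3.48 FPKM (SD, n = 3). Its scaled levels were 475, 464 and 444 CPM in control and 310, 261 and 248 in repletion, with no overlap. Slc43a3 fell by 0.76 ± 0.11 (edgeR adjusted p of 3.6e-05). Slc43a2, the gene of LAT4, a carrier of branched-chain amino acids, phenylalanine and methionine, stood at 8.01, 14.4 and 12.2 CPM in control and at 5.88, 8.17 and 6.69 in repletion. It fell by 0.74 ± 0.23 (edgeR adjusted p of 0.0187), although control replicate 1 lay below the highest repletion library. Its call was lost without control replicate 2 (0.110) or 3 (0.0573) or repletion replicate 3 (0.0592) (alternatives between 0.00353 and 0.110), and it overlaps Gm45606 on the opposite strand. Slc43a1, the gene of LAT3, had no counts in control and 6, 0 and 1 in repletion.

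Carriers of the lysosomal membrane moved separately. Slc38a7, which encodes SNAT7, an exporter of glutamine and asparagine from lysosomes, stood at 34.4, 33.2 and 34.0 CPM in control and at 18.4, 25.1 and 17.9 in repletion. It fell by 0.73 ± 0.15 (edgeR adjusted p of 0.00109), without overlap. Slc36a1, the gene of the proton-coupled carrier PAT1, stood at 25.8, 27.4 and 24.0 CPM in control and at 30.8, 28.4 and 26.2 in repletion. These overlapped, and the log2 fold change of 0.15 ± 0.14 did not pass (edgeR adjusted p of 0.410). Slc36a4, the gene of PAT4, a related carrier of high affinity found on internal membranes, rose by 0.73 ± 0.16 (edgeR adjusted p of 0.00148) from 42.6, 38.4 and 29.9 CPM to 49.1, 73.7 and 60.5, without overlap.

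Slc38a9, which encodes the lysosomal arginine sensor of mTORC1, stood at 26.9, 27.3 and 27.5 CPM in control and at 31.4, 27.1 and 27.6 in repletion. The groups overlapped and the log2 fold change of 0.08 ± 0.13 did not pass (edgeR adjusted p of 0.677). With the length and GC trend removed, Slc38a9 passed in the other direction (-0.40, adjusted p of 0.0190, the alternatives lying between 0.0190 and 0.992), and its gene model of 16704 bases overlaps Gm47827 on the opposite strand.

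The letters CACGTG, the core of the CLEAR elements bound by the lysosomal regulator TFEB, which read the same on both strands, were found within 250 bases before the start of 9 of the 44 genes with windows (20.5%, beside 6.86% of all genes). Slc36a1 and Slc38a7 were the lysosomal carriers among them together with Slc7a14, and the last 60 bases before the start of the first 2 are shown because both hold the letters, in capitals, at nearly the same distance (31 and 34 bases before the start, chr11:55204280-55204339, plus strand, and chr8:95853492-95853551, minus strand, RefSeq, GRCm38.p6):
Slc36a1: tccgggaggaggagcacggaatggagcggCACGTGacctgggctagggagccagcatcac
Slc38a7: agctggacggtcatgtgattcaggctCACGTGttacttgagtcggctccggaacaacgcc
Slc36a1 did not pass and Slc38a7 fell. The other genes with the letters, Slc1a6, Slc1a7, Slc38a5, Slc43a1, Slc6a16, Slc6a3 and Slc7a14, were not tested or did not pass. The distance is not particular to lysosomal carriers. The letters began 30 bases before the start of Slc38a5 and 32 before that of Slc1a6, but 69 before that of Slc7a14.

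The order of carrier levels per length changed at its top. In control, Slc3a2 (109 ± 3.26 FPKM) and Slc43a3 (102 ± 3.48) led, followed by Slc38a2 (75.6 ± 0.40) and Slc7a5 (72.7 ± 2.24), and then by Slc1a5 (36.4 ± 2.10), Slc7a1 (25.1 ± 0.948) and Slc6a8 (24.7 ± 0.580) (SD, n = 3). In repletion Slc38a2 led at 145 ± 16.1 FPKM, followed by Slc7a5 (80.9 ± 6.20), Slc3a2 (66.3 ± 14.0) and Slc43a3 (60.9 ± 6.97). Slc7a5 and Slc3a2 overlapped in their SD, as did Slc3a2 and Slc43a3, and in repletion replicate 1 Slc3a2 (82.2 FPKM) lay above Slc7a5 (76.1 FPKM). Slc7a1 and Slc6a8 lay within their SD of each other in control but at 26.6 ± 2.76 and 16.5 ± 0.296 FPKM in repletion.

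The summed level of the set differed between the groups through Slc38a2. Over all 62 genes it was 3121, 3232 and 3168 CPM of the library total in control and 3720, 3853 and 3598 in repletion. Without Slc38a2 it was 2469, 2560 and 2507 in control and 2530, 2401 and 2295 in repletion, which overlapped. Slc38a2 held 20.9% ± 0.0408 of the counts of the set in control and 35.3% ± 2.96 in repletion (SD, n = 3).

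**Figure D4:**
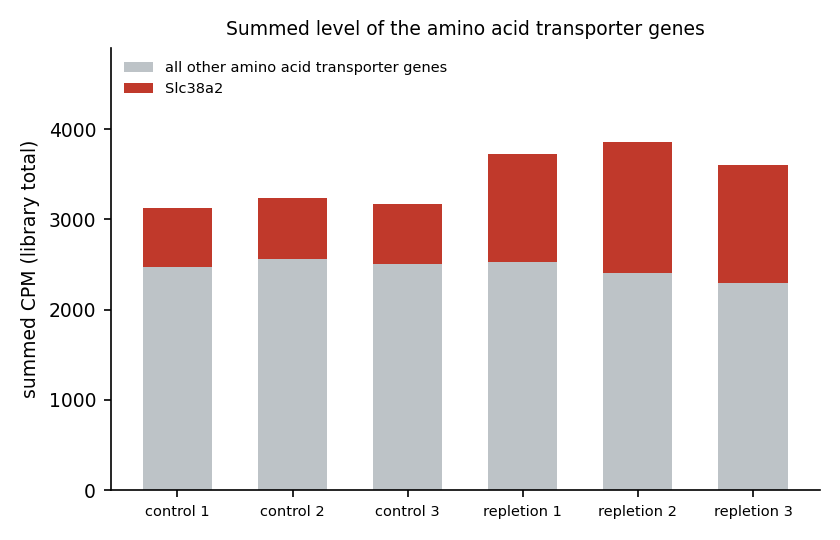
Stacked bars give, for each library (x axis), the summed CPM of the library total (y axis, from 0) of Slc38a2 in red and of the other 61 genes in grey. The red part is 20.9% of the bar on average in control and 35.3% in repletion, while the grey part lies between 2295 and 2560 CPM in all libraries.

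The higher and the lower carriers differed in gene length and GC content. The 8 higher genes had a median length of 7498.5 bases and a median GC content of 46.6%, the 9 lower genes 4464 bases and 53.5%, and the 12 others 6023.5 bases and 51.4%. Over all tested features, those called higher had a median length of 5433.5 bases and a median GC content of 48.5%, and those called lower 3592 bases and 49.9%, a smaller difference in GC content than among the carriers. Once the dependence on length and GC content was taken out, 7 carriers were called higher and 10 lower, and the share of higher calls among all called features went from 51.6% to 38.8%. Slc38a2 then rose by 0.71, Slc6a6 by 0.71, Slc36a4 by 0.60, Slc38a4 by 0.39, Slc6a19 by 0.69 and Slc7a3 by 2.04, and Slc6a9 fell by 1.58, Slc3a2 by 0.73 and Slc43a3 by 0.83, with the same calls as before. Slc38a1 and Slc38a9 were the carriers whose side of the threshold changed.

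**Figure D5:**
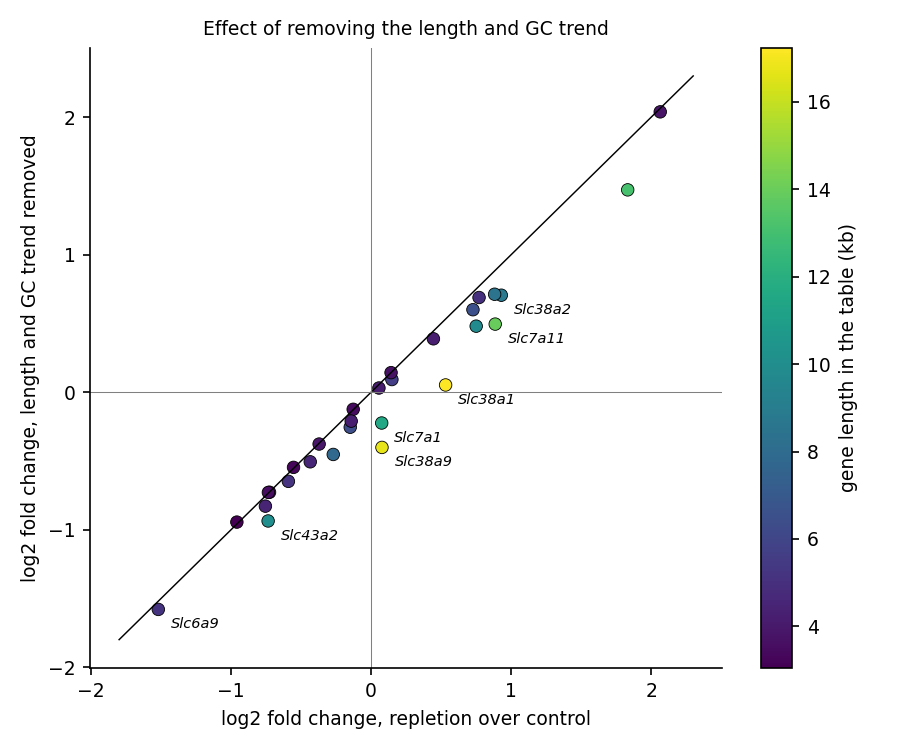
Each point is 1 of the 29 tested genes, with its log2 fold change on the x axis and the value once length and GC dependence was taken out on the y axis, coloured by gene length in kilobases, and the line marks equal values. Slc38a1 drops from 0.53 to 0.05 and Slc38a9 from 0.08 to -0.40, and these are the longest gene models of the set.

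The other 33 genes of the set were removed by the filter, and 11 of them had no count in any library: Slc1a1, Slc36a2, Slc36a3, Slc38a3, Slc38a8, Slc6a11, Slc6a21, Slc7a2, Slc7a4, Slc7a10 and Slc7a12. Of the 33, 18 had more counts in repletion than in control and 4 fewer. Among all 41428 features removed by the filter, 8013 had more counts in repletion and 4005 fewer. No carrier of these 33 had more than 33 counts over the 6 libraries. Slc38a5 had no counts in control and 2, 0 and 5 in repletion, Slc7a15 none and 2, 1 and 7, and Slc6a4, the serotonin carrier gene, 5, 0 and 0 and 8, 5 and 6. These are too few for a fold change. Between 32 and 34 genes of the set had at least 1 count in a control library and between 39 and 44 in a repletion library, beside 17899 to 19185 and 18835 to 22130 of all features.

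Other genes around these carriers were counted from lists chosen for their function, and their counts stand beside 20.5% of all tested features called higher and 19.2% called lower. Of 17 genes of the GCN2 and ATF4 amino acid response tested, 1 rose and 9 fell, with a median log2 fold change of -0.53. Atf4, the gene of the factor, had 318 ± 8.25 CPM in control and 262 ± 61.6 in repletion (SD, n = 3) and did not pass (-0.28 ± 0.13, edgeR adjusted p of 0.109). It passed as lower without repletion replicate 1 (-0.47, adjusted p of 0.00225) and with no filter (0.0256), with 0.00225 the lowest over its alternatives. Ddit3, the gene of CHOP, fell by 2.10 ± 0.15, and Ppp1r15b, which encodes a subunit that directs a phosphatase to eIF2, rose by 0.51 ± 0.10 (edgeR adjusted p of 5.5e-04). Of the carriers commonly listed as ATF4 targets, Slc3a2, Slc6a9, Slc1a4 and Slc43a2 were lower as given above, Slc38a2 and Slc7a11 were higher, and Slc7a5, Slc7a1 and Slc1a5 did not pass. This grouping of carriers was made after their values were seen.

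Of 17 tested enzymes that make or use the carried amino acids, 12 fell, with a median of -0.47. Asns, the asparagine synthetase gene, fell by 1.27 ± 0.10 (edgeR adjusted p of 1.2e-07). Of 6 tested genes of glutathione synthesis and use, for which xCT supplies cystine, 5 fell and 1 did not pass, with a median of -0.49. Gss, the glutathione synthetase gene, went from 27.3 ± 1.17 to 9.07 ± 0.925 CPM (SD, n = 3) and fell by 1.59 ± 0.16 (edgeR adjusted p of 1.2e-06). Gclc and Gclm, which encode the subunits of the preceding enzyme, fell by 0.48 and 0.54.

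Of 13 tested genes of arginine and nitric oxide metabolism, 1 rose, 2 fell and 10 did not pass, with a median of -0.14. Nos3, the endothelial nitric oxide synthase gene, stood at 635 ± 60.6 CPM in control and 640 ± 82.3 in repletion (SD, n = 3), with a log2 fold change of 0.01 ± 0.11 (edgeR adjusted p of 0.935). Odc1, the ornithine decarboxylase gene, fell by 1.01 ± 0.12 (edgeR adjusted p of 5.9e-06). Arg1, an arginase gene, rose by 2.86 ± 0.93 (edgeR adjusted p of 0.0209) but at less than 1 CPM, and its call was lost with DESeq2 and without control replicate 1 or 2 or repletion replicate 1 or 3, with adjusted p up to 0.103. Arg2 was not tested.

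Of 35 tested genes of lysosomal amino acid sensing and mTORC1, 6 rose, 10 fell and 19 did not pass, with a median of -0.06. With the length and GC trend removed, 4 of them were called higher and 15 lower, beside 2203 and 3479 of all features. Flcn, the folliculin gene, whose product acts on the Rag GTPases of the lysosome, fell by 1.37 ± 0.12 (edgeR adjusted p of 2.7e-07), from 98.4 ± 9.71 to 37.9 ± 2.08 CPM (SD, n = 3). Nprl3, which encodes a subunit of GATOR1, an inhibitor of mTORC1, rose by 1.32 ± 0.16 (edgeR adjusted p of 1.1e-05). Sesn2, the gene of the leucine-binding sestrin 2, fell by 0.89 ± 0.13 (edgeR adjusted p of 4.7e-05). Rragd was not tested.

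Of 14 tested amino acid carriers outside the families of the set, 5 rose, 4 fell and 5 did not pass, with a median of 0.00. Slc25a12, the gene of a mitochondrial aspartate and glutamate carrier, went from 35.7 ± 3.84 to 82.8 ± 5.39 CPM (SD, n = 3) and rose by 1.21 ± 0.12 (edgeR adjusted p of 1.2e-06). Slc17a5, which encodes the lysosomal sialic acid carrier sialin, fell by 0.88 ± 0.18 (edgeR adjusted p of 0.00103). Without repletion replicate 3, 1 of these genes was called lower, and without control replicate 1 or 2 or repletion replicate 3, 3 were called higher.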

How the data were processed

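RNA was measured by sequencing in 6 samples, 3 control and 3 repletion, grouped by their titles. Named in the submitters' processing notes, with no role stated, are the build GRCm38.p6, DESeq2 1.20.0, HISAT2 2.0.5 and featureCounts 1.5.0-p3. The deposited read counts are whole numbers per feature, per the file headers. The deposited FPKM equal count over length over 1 constant per sample and were used for levels between genes. The deposited log2 fold changes and the deposited p-values of the authors' own comparison were not used.

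Counts were filtered with filterByExpr by group (13804 of 55232 features left), normalised by TMM (factors between 0.970 and 1.03), and tested with glmQLFit and glmQLFTest of edgeR 4.0.16 in R 4.3.3, two-sided, with Benjamini-Hochberg adjustment over all tested features calling features under 0.05. The common coefficient of biological variation came to 14.1%. Standard errors were derived from the F statistic. The scripts were tested on simulated data. Alternatives were DESeq2 1.42.0, limma-voom (limma 3.58.1), library size only, upper quartile or RLE factors, no filter, a filter at 1 CPM in 3 samples, a table of protein-coding genes, each replicate left out, a replicate block, and offsets for gene length and GC content (smooth terms in mgcv, GC from the longest GENCODE M21 transcript). Exon overlaps came from GENCODE M21, which held all 62 genes, 60 with the same start and end. Shared sequence was sought with BLAST 2.17.0 at 95% identity over at least 200 bases. Promoter windows were RefSeq's.

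The set and the lists were chosen with earlier results of these data known. Values per library are given for genes past the threshold with a log2 fold change of at least 0.5 and a mean of at least 1 CPM and for 13 carriers fixed by function, and for others where a result needed them; from each list of other genes the smallest p in each direction was named, with 9 fixed genes. A gene that this rule names among the enzymes is not reported here.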

Additional observations from a re-analysis of the deposited data

How the results depend on the processing

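Of the 17 called carriers, 11 (5 higher, 6 lower) kept direction and side of the threshold in all 16 alternatives run. The other 6 were Slc38a1, Slc6a19, Slc7a3, Slc1a4, Slc43a2 and Slc6a12, each named above with its values. Slc38a9 turned from 0.08 to -0.40 with the length and GC trend removed, where 7 carriers were higher and 10 lower. Slc7a7 passed with upper quartile factors (adjusted p of 0.0491) and Slc1a2 with limma-voom (0.0334). The median log2 fold change of the tested genes of the set was 0.12 with library size only and -0.025 with at least 1 CPM in 3 samples. It was -0.21 with the length and GC trend removed, 0.73 with DESeq2 and 0.69 with no filter. The last 2 are over 51 genes of the set because genes with few counts enter. With 1 replicate left out the median was -0.022 to 0.091. The cause of the other shifts was not tested. Leaving out 1 replicate gave 7 to 8 higher and 6 to 8 lower carriers. Of the carriers outside the set, 3 were called higher with no filter and 3 to 5 with 1 replicate left out, and 1 to 5 lower. Of the arginine and nitric oxide genes, 0 were higher with DESeq2 and 0 with at least 1 CPM in 3 samples, where Arg1 did not pass or was not tested, and 0 to 1 were higher and 1 to 3 lower with 1 replicate left out.

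Same-numbered samples did not deviate together, with correlations of -0.08, -0.03 and 0.06 over tested features. Whether same-numbered samples were handled together cannot be told from these values. With a replicate block, 8 carriers were higher and 8 lower, Slc6a12 losing its call (adjusted p of 0.0526), 2485 and 2353 of all features were called, and 3 carriers outside the set were higher.

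With 3 libraries a group and 15582349 to 17817618 counts each, the 33 carriers below the filter on low counts were not tested in the main comparison.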
